A study of Mus musculus with 6 samples.

Results

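The genes described here are those of the mitochondrial ribosomal proteins, taken by their symbols as all genes of the deposited table whose name starts with Mrpl or Mrps followed by a digit. Of 19831 listed genes 77 met this rule, 48 named for the large subunit (Mrpl) and 29 for the small subunit (Mrps). The RNA came from inguinal adipose tissue (iAT), a subcutaneous fat depot, of mice at postnatal day 6. Total RNA of 3 wild-type samples was compared with that of 3 samples from mice lacking Npffr1 (Npffr1-KO), the gene of neuropeptide FF receptor 1. In both genotypes the animals were kept under specific-pathogen-free conditions and the tissue was extracted with TRIzol. The labels name no strain, sex, pooling or kind of deletion for the samples. Nor do they say that the samples of a genotype came from separate animals.

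The mitochondrial ribosome makes the few proteins that are encoded by mitochondrial DNA, which are core subunits of the respiratory chain and ATP synthase. Its own RNA comes from mitochondrial DNA as well, whereas its proteins are encoded in the nucleus, made in the cytosol and imported. Many of these proteins have a counterpart in the bacterial ribosome, and others occur in mitochondria alone. Adipocytes that burn fat for heat hold many mitochondria, so the family is of interest in young iAT, where such cells are present.

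For each gene the table gives 1 value per genotype, a read count that the authors normalized by library size, and this value is called normalized counts here. There is no value per sample, so no spread between samples can be given, no test was run, and the ratio of the Npffr1-KO to the wild-type value describes these libraries alone. These values are not plain means of the 3 libraries. Among the 1883 genes with a mean under 1, the largest log2 ratio was 0.51 in size, so that genes with few reads are drawn together. The sum over all genes was 23137343 for wild-type and 23640005 for Npffr1-KO, a log2 ratio of 0.03. The deleted gene gave too few reads to check the labels, its values being 1.12 (wild-type) and 0.855 (Npffr1-KO). Nnt, looked up beside it, stood at 650 (wild-type) and 1593 (Npffr1-KO), a log2 ratio of 1.29. Whether the genotypes also differed in strain background was not tested, so the differences below cannot be assigned to the loss of Npffr1 alone. In whole tissue, fewer cells of a type and less RNA per cell cannot be told apart.

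All 77 members were higher in Npffr1-KO than in wild-type iAT, by a median log2 ratio of 0.31, or 1.24-fold. Among the 15309 genes whose mean of the 2 values reached 10, a minimum that every member met (expressed genes from here on), 51.2% were higher by any amount and the median log2 ratio was 0.01. In 49 members, 63.6% of them, the value was over 1.2-fold higher, against 16.8% of all these genes. None was over 1.2-fold lower, a change listed for 15.6% of these genes. Among 7675 other genes with a mean in the members' range, the median log2 ratio was 0.02, and 14.0% of them were over 1.2-fold higher.

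The difference was small in each gene and alike across the family. Of the 77 log2 ratios 72 lay between 0.1 and 0.5, and their interquartile range ran from 0.24 to 0.39. Their SD across members was 0.11, against 0.31 across all expressed genes and 0.25 across the other genes with a mean in the members' range. Such likeness was not particular to the family. The interquartile range was 0.15 wide for the members, 0.10 for cytosolic ribosomal proteins (SD 0.13) and 0.14 for the respiratory chain (SD 0.26). Added up, the members came to 69794 normalized counts for wild-type and 86073 for Npffr1-KO. Their share of the sum over all genes was 0.302% for wild-type and 0.364% for Npffr1-KO. The median difference per member was 186 normalized counts, and 66 of the 77 were higher by over 100.

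**Figure D1:**
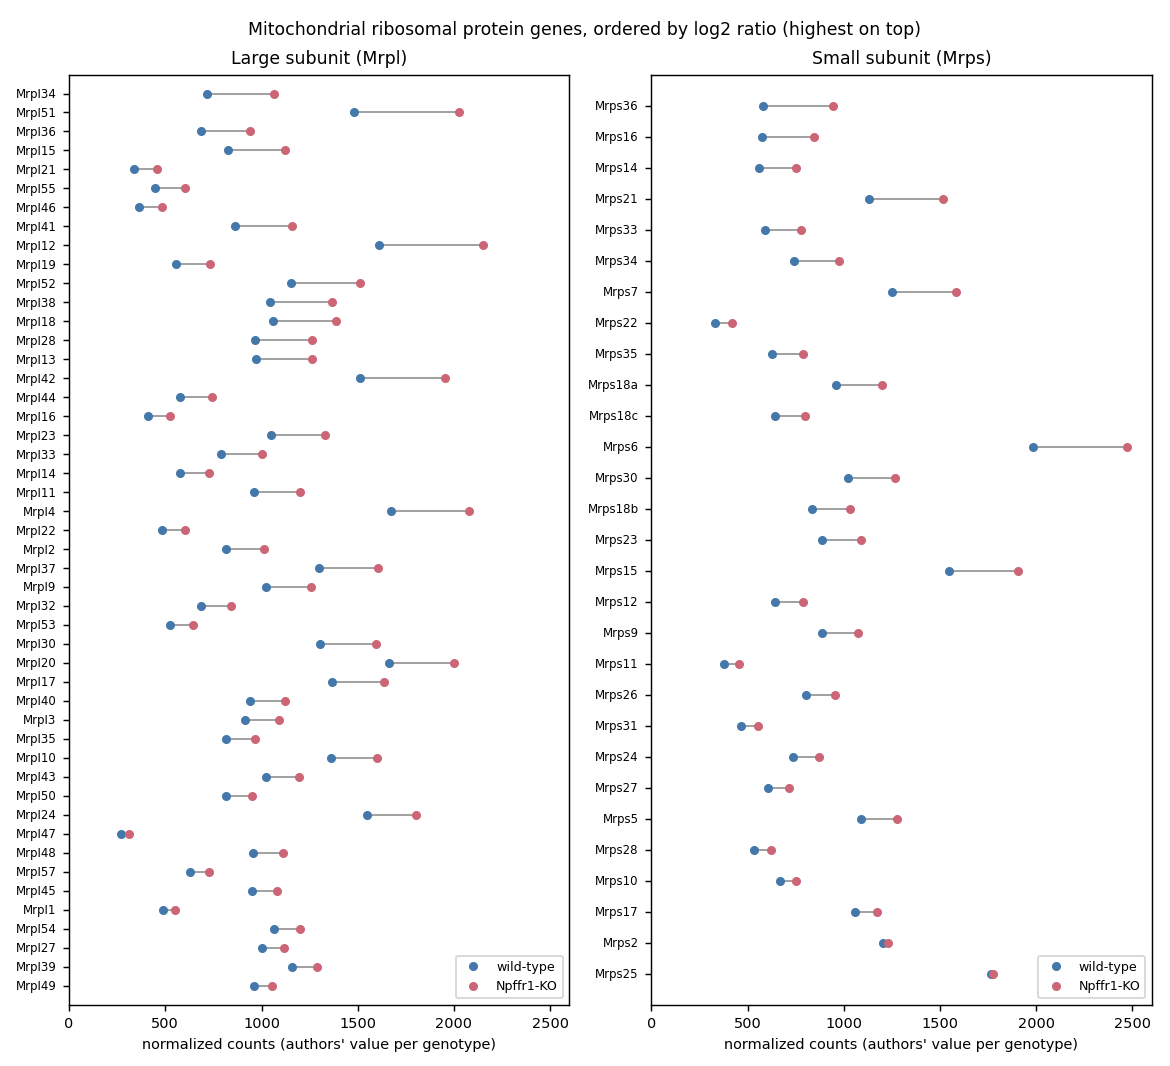
Normalized counts (linear axis) of the 77 mitochondrial ribosomal protein genes, 1 row per gene, with the authors' wild-type value in blue and the Npffr1-KO value in red, for the large subunit on the left and the small subunit on the right. The red point lies to the right of the blue one in all 77 rows, and the points almost coincide for Mrps25 and Mrps2.

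Both subunits were higher in Npffr1-KO, and the difference between them was not tested. The median log2 ratio was 0.31 for the 48 Mrpl genes, of which 31 were over 1.2-fold higher, and 0.30 for the 29 Mrps genes, of which 18 were. The 46 members with a counterpart in the bacterial ribosome had a median of 0.31, and the 30 counted as mitochondria-specific had 0.30. This grouping follows the current names of the proteins and was made after the values had been seen. The remaining member is Mrps36, which carries a ribosomal symbol but is now known as a subunit of the alpha-ketoglutarate dehydrogenase complex of the citrate cycle.

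Mrps36 had the highest log2 ratio of the family, 0.69, its values being 583 normalized counts (wild-type) and 943 (Npffr1-KO). Where a pair of values is given for a gene below, the first is that of wild-type. The next highest was Mrpl34, a short protein of the large subunit with a bacterial counterpart, at 718 and 1066 (log2 ratio 0.57). Mrps16, a small subunit protein whose loss causes a human disorder of the respiratory chain, stood at 575 and 844 (log2 ratio 0.55). These were followed by Mrpl51, a protein of mitochondrial ribosomes alone, with 1481 and 2026 (log2 ratio 0.45). Mrpl36, another small protein with a bacterial counterpart, had 687 and 938 (log2 ratio 0.45). With Mrps36 set aside, the upper end of the family is thus held by ribosomal proteins of both subunits that were below 1.5-fold.

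At the other end Mrps25, a mitochondria-specific protein of the small subunit, had nearly the same value in both genotypes, 1766 in wild-type and 1778 in Npffr1-KO (log2 ratio 0.01). Mrps2, the counterpart of bacterial S2, had 1202 and 1229 (log2 ratio 0.03). For Mrpl49 the values were 963 and 1055 (log2 ratio 0.13). The lowest 5 were completed by Mrps17, with 1060 and 1173, and Mrpl39, with 1161 and 1288, both with a log2 ratio of 0.15. Except for Mrps25 and Mrps2, no member had a log2 ratio under 0.1.

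Some members with a special place in the ribosome or outside it were within the range of the rest. Mammalian mitochondria have 3 proteins related to bacterial S18, of which Mrps18c alone is counted above as its counterpart, and their log2 ratios were close to each other, with 0.32 for Mrps18a (958 in wild-type and 1200 in Npffr1-KO), 0.31 for Mrps18b (837 and 1034) and 0.32 for Mrps18c (641 and 799). Mrps18a is counted here with the small subunit by its symbol, although its protein sits in the large one. Mrpl12, a protein of the ribosomal stalk that also binds the mitochondrial RNA polymerase, had 1609 and 2149 (log2 ratio 0.42). Its stalk partners Mrpl10 and Mrpl11 had log2 ratios of 0.23 (1362 and 1599) and 0.32 (959 and 1200). Mrps12, at the decoding centre, had 640 and 788 (log2 ratio 0.30). Mrpl45, which helps to anchor the ribosome at the inner membrane, had 952 and 1079 (log2 ratio 0.18).

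Although their products are parts of 1 particle, the members were not listed at 1 level. In wild-type iAT the values ran from 267 normalized counts for Mrpl47 to 1983 for Mrps6, 7.41-fold apart, with a median of 885 and a coefficient of variation of 41.6%. Of the 77 members 44 lay within a 2-fold range centred on this median. Per kilobase of the gene length in the table, the level in wild-type had a median of 754 normalized counts per kilobase, against 193 for all expressed genes. The highest were Mrpl52 with 2793, Mrps21 with 2677, Mrpl20 with 2499, Mrps6 with 2494 and Mrpl42 with 2270 normalized counts per kilobase. At the low end were Mrpl19 with 110, Mrpl1 with 181, Mrpl17 with 204, Mrpl35 with 220 and Mrpl15 with 229. The range per kilobase was 25.3-fold, wider than that of the undivided values, and the low 5 are all among the 12 members longer than 2000 bases. Lengths ran from 412 bases for Mrpl52 to 6712 bases for Mrpl17. The length in the table need not be that of the transcript used in this tissue.

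Per kilobase the members were listed below the cytosolic ribosomal proteins and the respiratory chain, and above most other genes. The median per kilobase in wild-type was 17661 normalized counts for 79 cytosolic ribosomal protein genes and 2954 for 83 respiratory chain genes. The median member stood at percentile 87.0 of all genes per kilobase, with a range from 51.3 for the lowest to 97.1 for the highest.

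Gene length moved with the log2 ratio in these libraries, and the members are short. Their median length was 1055 bases, against 2785 bases for all expressed genes. Over these 15309 genes Spearman's rho between length and log2 ratio was -0.38, a description across genes that share the same libraries. In the members alone rho was -0.27. Among genes of up to 1000 bases the median log2 ratio was 0.25 and 46.5% were over 1.2-fold higher. In this band the 33 members had a median of 0.32, and 27 of them lay above the median of the band. For 1000 to 2000 bases the median of all genes was 0.13, and the 32 members, with a median of 0.30, were all above it. From 2000 to 10000 bases it was -0.04, and the 12 members, with a median of 0.24, were again all above it.

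**Figure D2:**
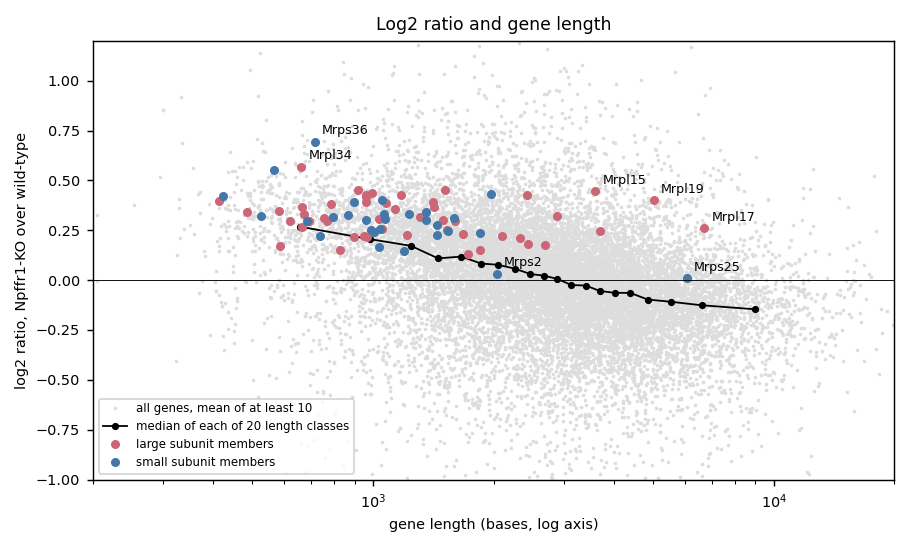
Log2 ratio of Npffr1-KO over wild-type (linear axis) against gene length in bases (log axis), with all expressed genes in grey, large subunit members in red and small subunit members in blue. The black line joins the medians of 20 length classes of equal size and falls with length, and 70 of the 77 members lie above the median of their class.

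The log2 ratios were also centred by length, by subtracting the median of the length class a gene fell in. The median of the members was then 0.14, or 0.15 for the large and 0.12 for the small subunit. Above the median of their own class were 70 of the 77, against 50.0% of all genes. Over 1.2-fold higher were 12 members, 15.6% of the family, which is near the 11.7% of all genes, and none was over 1.2-fold lower, against 15.2% of all genes. The difference that remains after centring is smaller, and it has the same direction in 70 members. Whether length or something that goes with it has a part in the result was not tested.

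The 12 members past 1.2-fold after centring were 9 of the large and 3 of the small subunit. Among them Mrpl17 and Mrpl35 had been under 1.2-fold as deposited, with ratios of 1.199 and 1.187. Mrpl19 and Mrpl15 came first, with a centred log2 ratio of 0.50 each. Both are long members with bacterial counterparts, and their values were 554 and 732 for Mrpl19 and 824 and 1121 for Mrpl15. They were followed by Mrps36 with 0.43, while the centred value was 0.30 for Mrpl34 and 0.29 for Mrps16. The other 7 were Mrpl17 and Mrpl41 with 0.39 each, Mrps14 with 0.36, Mrpl51 with 0.34, Mrpl11 with 0.32, Mrpl35 with 0.30 and Mrpl38 with 0.28. Of the exons of Mrpl19 36.0% lie opposite to exons of Gcfc2. The order of the family thus changes with the centring, since Mrpl34 and Mrps16 are short and Mrpl19 and Mrpl15 are not. Mrps25, the lowest as deposited, is 6076 bases long and had a centred log2 ratio of 0.14. The 7 members below the median of their class were Mrpl27 with -0.11, Mrpl54 with -0.10, Mrps28 with -0.05, Mrps2 and Mrps10 with -0.04 each, Mrps17 with -0.03 and Mrpl20 with -0.00.

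**Figure D3:**
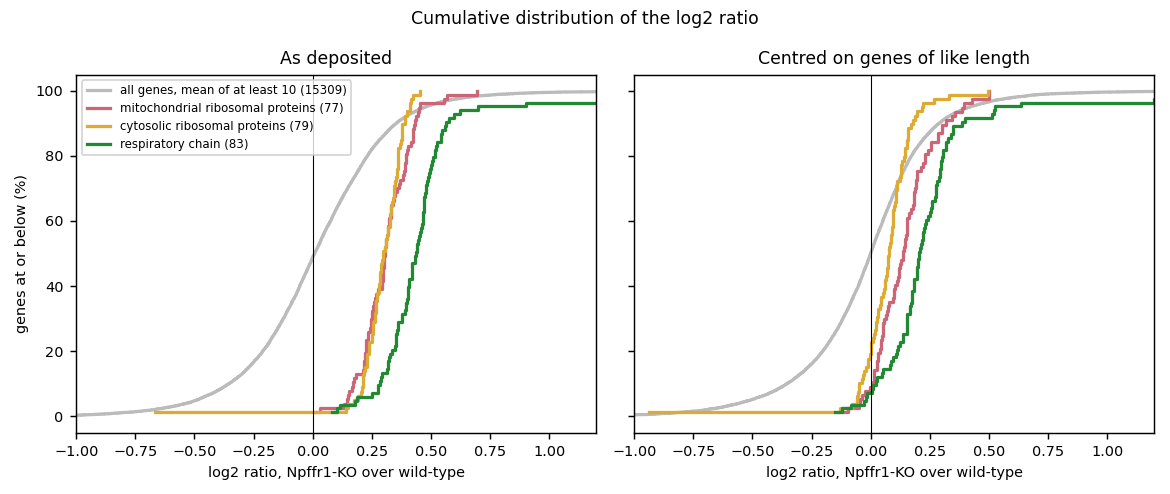
Share of genes (%) at or below a given log2 ratio of Npffr1-KO over wild-type, as deposited on the left and centred on genes of like length on the right, for the members in red, all expressed genes in grey, cytosolic ribosomal proteins in yellow and the respiratory chain in green. The members and the cytosolic ribosomal proteins have nearly the same median as deposited, 0.31 and 0.30, and after centring the medians are 0.14 for the members, 0.08 for the cytosolic ribosomal proteins and 0.20 for the respiratory chain.

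The cytosolic ribosome and the respiratory chain, the machine with which mitochondrial translation products are assembled, were set beside the members. Of 79 cytosolic ribosomal protein genes 78 were higher in Npffr1-KO and 56 over 1.2-fold, with a median log2 ratio of 0.30. Their extremes were Rplp1 at 0.45 and Rpl39l at -0.67, the latter with 83.0 and 52.3 normalized counts. Of 83 respiratory chain genes all were higher and 77 over 1.2-fold, with a median of 0.44. Here the extremes were Cox8b at 1.77, a subunit of cytochrome c oxidase typical of thermogenic fat and muscle, and Cox7a2l at 0.08. These 2 lists had median lengths of 729 and 727 bases. As deposited, 51.2% of all expressed genes were higher by any amount. Over 1.2-fold higher were 16.8% of all expressed genes and 46.5% of those of up to 1000 bases. After centring on length 3 of the 79 cytosolic and 28 of the 83 respiratory chain genes were over 1.2-fold higher, against 11.7% of all expressed genes. Differences between the lists were not tested.

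Other genes of mitochondrial translation were mostly higher as well, with medians from 0.17 to 0.33 as deposited. After centring on length the medians were 0.20 for ribosomal proteins of other symbols, 0.11 for assembly factors, 0.16 for translation factors and 0.12 for tRNA synthetases, against 0.14 for the members, so that the order of the lists changes with the centring. The counts that follow are as deposited. They stand against 51.2% of all expressed genes higher by any amount and 16.8% over 1.2-fold. Of the ribosomal proteins that carry other symbols 6 were listed, all 6 were higher and 4 were over 1.2-fold, with a median of 0.33. They ran from Dap3, a GTP-binding protein of the small subunit, at 0.21 to Chchd1 at 0.44, and Aurkaip1 had the highest level, 1765 in wild-type and 2248 in Npffr1-KO. Among 25 assembly factors of the ribosome, which modify its RNA or help its folding, 24 were higher and 8 over 1.2-fold, with a median of 0.19. The highest log2 ratio there was 0.51 for Rnmtl1, a methyltransferase of the large ribosomal RNA, and the lowest was -0.14 for the pseudouridine synthase homologue Trub2. C1qbp, the most abundant of them, had 1652 and 2044 normalized counts.

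Translation factors and tRNA synthetases showed a wider scatter than the members, with SDs of the log2 ratio of 0.16 and 0.18 against 0.11. For the assembly factors the SD was 0.15. Of 15 factors 13 were higher and 5 over 1.2-fold, with a median of 0.21. Taco1, an activator of the translation of cytochrome c oxidase subunit I, was highest at 0.49, and Mtfmt, which formylates the initiator methionyl-tRNA, was lowest at -0.13. The membrane insertase Oxa1l had the highest level, 2673 and 3056. Among the 17 mitochondrial aminoacyl-tRNA synthetases, which load tRNAs with amino acids, 13 were higher and 4 over 1.2-fold, with a median of 0.17. The extremes were Yars2 at 0.43 and Wars2 at -0.16, and Iars2, the most abundant, had 2292 and 2376. In none of these lists was a gene over 1.2-fold lower.

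The regulators of mitochondrial biogenesis were unlike each other. Of 11 listed genes 9 were higher and 4 over 1.2-fold, with a median of 0.07. The 4 were Ppargc1b (201 and 374 normalized counts, log2 ratio 0.90), Ppargc1a (136 and 241, 0.83), the nuclear receptor Esrra (876 and 1293, 0.56) and Myc (1411 and 1884, 0.42), the most abundant. Ppargc1a and Ppargc1b encode coactivators of mitochondrial gene expression. Nrf1, Gabpa and Yy1, which bind DNA as Esrra and Myc do, had lower log2 ratios of 0.01, -0.11 and 0.07. Tfam, which packs and transcribes mitochondrial DNA, had 0.14. After centring on length these were 0.03 for Nrf1, -0.01 for Gabpa, 0.01 for Yy1 and 0.20 for Tfam. The centred median of the 11 regulators was 0.07, and 4 were over 1.2-fold higher, against 11.7% of all expressed genes after centring.

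**Figure D4:**
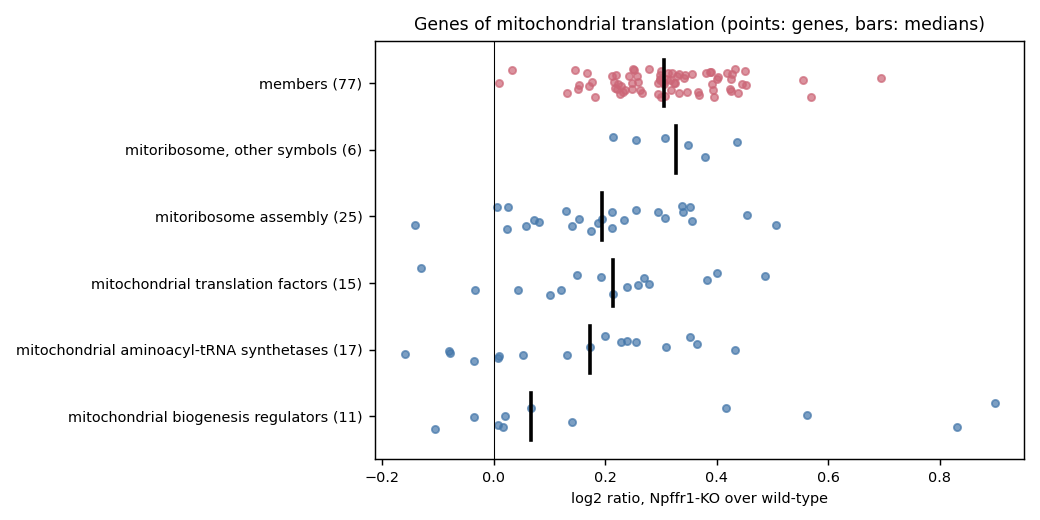
Log2 ratio of Npffr1-KO over wild-type (linear axis) for the 77 members in red and for 5 lists of related genes in blue, with 1 point per gene, spread vertically for legibility, and a black bar at each median. The medians run from 0.33 for ribosomal proteins of other symbols and 0.31 for the members to 0.07 for the regulators of biogenesis, of which 4 stand apart on the right, in ratios not centred on length (after centring the translation factors, at 0.16, come above the members, at 0.14).

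Markers of several cell types differed between the genotypes as well. The summed value of 7 thermogenic adipocyte markers was 1569 for wild-type and 5212 for Npffr1-KO, with Ucp1, the uncoupling protein of brown and beige fat, at 438 and 1287. Of these markers 6 had a mean of at least 10, all 6 were over 1.2-fold higher and their median log2 ratio was 1.62, while Elovl3 was close to 0 in both genotypes. For 6 general adipocyte markers the sums were 361602 and 390723, with a median of 0.15, 5 of 6 higher and 1 over 1.2-fold. T cell markers summed to 5515 and 8587, with 5 of 5 over 1.2-fold higher. B cell markers summed to 8386 and 9958, with 4 of 4 higher and 2 over 1.2-fold. Macrophage markers summed to 8003 and 8257, with 2 of 4 higher, both over 1.2-fold. Skeletal muscle markers summed to 413 and 775, with 6 of the 6 that had a mean of at least 10 over 1.2-fold higher and Myh4 near 0. Epithelial markers summed to 36.7 and 45.0. Adipocyte markers were by far the most abundant in both genotypes, as the label of the tissue has it. Of all expressed genes 51.2% were higher by any amount and 16.8% were over 1.2-fold higher. The thermogenic markers Cox8b and Cox7a1 are also in the respiratory chain list, and Ppargc1a is among the regulators of biogenesis. The part of these cell types in the members' values was not tested.

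The starts of the genes were examined next. RefSeq promoter windows of 300 bases, from 250 bases before to 50 after the start (build GRCm38.p6), were at hand for 68 of the 77 members, 74 windows in all. They had a median GC content of 58.5% and a median of 21.5 CpG dinucleotides. For the windows of all genes the medians were 52.7% and 7, and for those of expressed genes they were 60.0% and 19. In base composition the members thus resembled other genes read in this tissue.

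Letters of 3 factors known from housekeeping promoters were searched on both strands. CCGGAAGT, the core of sites of ETS factors such as Gabpa, was in 12 of the 74 windows (16.2%), against 3.89% of all windows and 6.97% of those of expressed genes. CGCATGCG, the core of NRF1 sites, which reads the same on both strands, was in 7 (9.46%), against 1.87% and 3.32%. AAGATGGC, a YY1 site, was in 12 (16.2%), against 2.75% and 3.86%. TATAAA, the TATA box, was in 5 (6.76%), against 13.6% and 7.69%. A match of letters is a description and no evidence of binding, and the shares were not tested.

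The medians of members with and without these letters lay close together for the first 3 motifs and further apart for the TATA letters. Members with the ETS core had a median of 0.29 (12 members) and those without it 0.30 (56). For the NRF1 core the medians were 0.30 and 0.30, and for the YY1 letters again 0.30 and 0.30. The 29 members with any of these 3 motifs had a median of 0.30, and the 39 with none had 0.31. The 5 members with the TATA letters had a median of 0.24, and the 63 without them 0.30. These differences were not tested.

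Windows with more than 1 of these motifs are shown for Mrpl32 and Mrps27, with the motif letters in capitals on the strand of the gene, 5′ to 3′. The window of Mrps24, with the YY1 and the TATA letters, also has 2 motifs and is not shown. Mrpl32, a large subunit protein cut to size by a protease of the inner membrane, holds YY1 letters and the NRF1 core at 2 places (chr13:14612988-14613287, minus strand). Its values were 686 and 843 normalized counts (log2 ratio 0.30). Mrps27, a mitochondria-specific protein of the small subunit, holds the ETS core and, close to the start, the YY1 letters (chr13:99344536-99344835, plus strand). It was listed at 607 and 714 (log2 ratio 0.24).
Mrpl32: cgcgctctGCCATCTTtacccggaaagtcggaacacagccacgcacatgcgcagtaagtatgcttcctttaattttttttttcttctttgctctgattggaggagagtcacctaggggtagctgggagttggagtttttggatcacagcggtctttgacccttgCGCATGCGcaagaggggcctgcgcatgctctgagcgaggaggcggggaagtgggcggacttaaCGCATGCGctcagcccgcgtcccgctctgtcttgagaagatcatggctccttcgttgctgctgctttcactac
Mrps27: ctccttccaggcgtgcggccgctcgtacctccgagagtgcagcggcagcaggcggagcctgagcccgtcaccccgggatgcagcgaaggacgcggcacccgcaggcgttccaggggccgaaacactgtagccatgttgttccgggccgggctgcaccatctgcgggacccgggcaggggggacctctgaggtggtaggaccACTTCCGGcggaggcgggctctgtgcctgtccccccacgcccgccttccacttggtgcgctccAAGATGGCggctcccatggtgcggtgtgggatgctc

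Among the members with a window, 1 pair starts head to head on opposite strands. Mrps11, the counterpart of bacterial S11, and Mrpl46, a mitochondria-specific protein of the large subunit, start 42 bases apart on chromosome 7, and their windows share 141 bases. The windows are shown because a gene of each subunit starts in 1 short stretch of DNA (chr7:78782881-78783180, plus strand, for Mrps11 and chr7:78783040-78783339, minus strand, for Mrpl46). Capitals mark the YY1 letters in Mrps11 and the TATA letters in Mrpl46. Mrps11 had 379 and 454 normalized counts (log2 ratio 0.26), and Mrpl46 had 361 and 486 (log2 ratio 0.43). In wild-type both were thus at the low end of the family. After centring on length their log2 ratios were 0.05 and 0.25. Exons of Mrps11 cover 12.2% of those of Mrpl46 on the other strand, and it is not stated whether the counting used strand.
Mrps11: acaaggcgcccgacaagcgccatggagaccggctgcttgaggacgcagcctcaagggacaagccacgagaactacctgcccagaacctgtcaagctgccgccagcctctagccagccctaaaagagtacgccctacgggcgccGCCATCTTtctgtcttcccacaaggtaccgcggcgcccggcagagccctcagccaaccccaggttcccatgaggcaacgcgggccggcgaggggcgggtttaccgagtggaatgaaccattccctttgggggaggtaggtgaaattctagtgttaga
Mrpl46: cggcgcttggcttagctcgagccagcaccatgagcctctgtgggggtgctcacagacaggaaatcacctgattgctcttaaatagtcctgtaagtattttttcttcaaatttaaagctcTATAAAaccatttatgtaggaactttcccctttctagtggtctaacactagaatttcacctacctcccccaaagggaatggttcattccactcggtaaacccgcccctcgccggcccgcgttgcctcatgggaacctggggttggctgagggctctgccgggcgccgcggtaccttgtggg

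Head-to-head neighbours outside the family allow a comparison at 1 place in the genome. In the GENCODE annotation 18 of the 77 members (23.4%) had another protein-coding gene starting on the other strand within 1000 bases upstream, against 9.26% of 14345 expressed genes that could be placed. A gene that starts inside the member was not counted. Overlapping pairs such as Mrps11 and Mrpl46 are thus left out of the counts and medians that follow. Of these neighbours 17 had a mean of at least 10. Their median log2 ratio was 0.03, against 0.30 for their own members, and 14 of the 17 were lower than the member they start beside. All 1208 such neighbours of other expressed genes had a median of 0.07. After centring on length the medians were 0.06 for the neighbours and 0.10 for their members, and 11 of 17 were lower. The neighbours had a median length of 2260 bases.

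Single pairs went different ways. Mrps12 starts 172 bases from Sars2, the mitochondrial seryl-tRNA synthetase, whose values were 465 and 467 (log2 ratio 0.01). Mrpl51 starts 100 bases from the condensin gene Ncapd2, with 2356 and 2413 (log2 ratio 0.03). Mrpl50 lies 83 bases from the zinc finger gene Zfp189, with 152 and 129 (log2 ratio -0.24), while Mrpl50 itself had 816 and 952 (log2 ratio 0.22). Mrpl49 was the reverse case, as its neighbour Fau at 59 bases, which encodes a ubiquitin-like protein fused to a cytosolic ribosomal protein, had the higher log2 ratio, 0.37 (8489 and 10937). The proteasome gene Psma2, 75 bases from Mrpl32, had 1947 and 2428 (log2 ratio 0.32), close to that of Mrpl32.

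**Figure D5:**
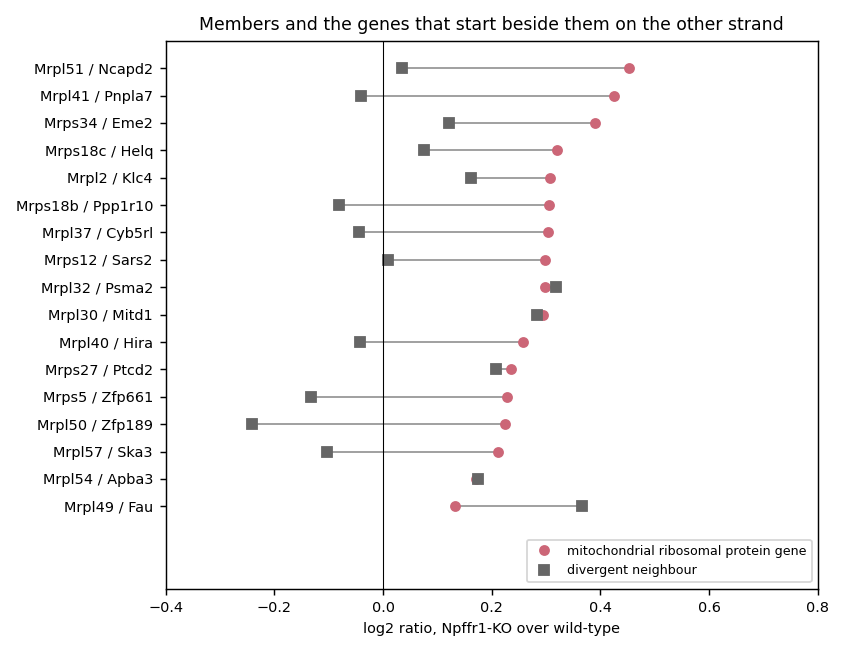
Log2 ratio of Npffr1-KO over wild-type (linear axis) for 17 members in red circles and for the neighbour that starts beside each on the other strand in grey squares, with 1 row per pair. The neighbour lies to the left of the member in 14 of the 17 rows, and Mrpl49 with Fau shows the opposite order.

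Reads of some members could be shared with other genes. In GENCODE transcripts 23 of the 77 members held no stretch of 31 bases found in another gene, and the median share of such stretches was 2.62%. In 18 members over 10% was shared, often with processed pseudogenes, as for Mrpl27 with 35.5% (Gm6304) and Mrps36 with 21.0% (Mrps36-ps1). Mrpl53 shared 84.4% with the gene model Gm42688, and its values of 524 and 643 are the least certain. Exons of other genes overlapped over 10% of the exons of 18 members, in 14 of them on the other strand. For Mrps25, the member that differed least, 69.8% lay opposite to exons of Nr2c2, and for Mrps34 77.8% lay within exons of Nme3 or Mapk8ip3. Without the 29 members of either kind the median log2 ratio was 0.30.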

How the data were processed

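The analysis used RNA sequencing of iAT (postnatal day 6), with 3 wild-type and 3 Npffr1-KO samples grouped by their labels. The submitters' processing notes name Bowtie2, RSEM and DESeq2. Not given in the sources used here were tool versions, genome build, annotation and use of strand. The authors' deposited table gives, as a signal, read counts normalized by library size, 1 value per gene and genotype, beside a gene length. Its columns of log2 fold changes, p-values and adjusted p-values are the authors' own comparison and were not used, and a second table of selected genes was not used either.

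Members were chosen by symbol, and the log2 ratio of the 2 values was taken with no pseudocount for 15309 genes whose mean reached 10 (expressed genes). Past 1.2-fold counts as called, with no test. For length centring the median of each of 20 classes of equal gene number was subtracted, a step tested on simulated data. The members and gene lists were chosen with earlier results of these data known. Named members are the 5 highest and 5 lowest by wild-type level per kilobase and by log2 ratio, the 3 Mrps18 paralogues, Mrpl10, Mrpl11, Mrpl12, Mrpl45, Mrps12 and Mrps36, and of the other lists the highest and lowest log2 ratio and the highest level. Other names, among them all members and neighbours in the account of promoters, overlaps and length classes and the remaining regulators of biogenesis, were chosen after their values were seen.

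Starts, exons and shared stretches of 31 bases came from GENCODE M21, to which all 77 members matched, and promoter windows from RefSeq (GRCm38.p6). Alternatives were other minimums, pseudocounts, centrings, folds and member sets. Reads per sample are not listed, so the precision is unknown. Python 3.11.15, NumPy 2.4.6, pandas 2.3.3 and matplotlib 3.10.9 were used.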

Additional observations from a re-analysis of the deposited data

How the results depend on the processing

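Of 43 alternative values 32 stayed near the reported ones and 11 moved, and no median log2 ratio turned its direction. Those with another minimum could not move, since every member had a mean above 289. Centred on genes of like length, the median log2 ratio of the members was 0.14 in place of 0.31, with 0.15 for the large and 0.12 for the small subunit, and 12 members in place of 49 were over 1.2-fold higher. Centred on genes of like length and like mean, an alternative chosen after seeing the data, the medians were 0.092, 0.12 and 0.090 in the same order, and 10 members were over 1.2-fold higher. By construction the count of members also moved with the fold, to 74 at 1.1-fold and 1 at 1.5-fold, which was Mrps36. The level per kilobase had a median of 964 with the Npffr1-KO values in place of 754 with those of wild-type. Pseudocounts (1 or 10) and subtraction of the median gene (0.30, with 48 members) moved the values little. So did ribosomal proteins of other symbols in place of Mrps36 (0.31). Leaving out the 29 members with shared or overlapping sequence, also chosen after seeing the data, gave 0.30. Over 1.2-fold lower were 0 members in each alternative run for that count.

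No value per sample was worked out for the members, whose means were all above 289, so leaving out each replicate in turn was not run. No paired analysis was possible because the table holds 1 value per genotype and no test was run. A difference of this size cannot be set against the spread between samples here, and the drawing together of values seen in genes with few reads was not measured for the members.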
